A study of Homo sapiens with 8 samples.

Results

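The genes described here are the caveolins CAV1 and CAV2 and the cavins PTRF, SDPR and PRKCDBP, which newer gene tables call CAVIN1, CAVIN2 and CAVIN3. They are 5 of the 43317 gene names on the array, read by 8 probes, and 4 of them were among the 24886 genes detected on at least 1 array. All probes carrying these gene names were taken on all 8 arrays. The family was chosen by measured values, since CAV1 had been seen among the lowest genes on the miR-143-5p array, so the CAV1 value on that array is a description and carries no test.

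The study transfected a mature miRNA into cancer cells and compared their RNA with mock RNA of the same line on two-colour Agilent arrays, to find genes that each strand of a miRNA precursor lowers. The transfected cells (Lipofectamine RNAiMAX, Cy5 label) and the mock cells (given as not transfected, Cy3 label) were grown in RPMI 1640 or DMEM. The study's methods give DMEM for HCT116 and mock cells as having received no precursor, while the medium of PANC-1 is not given in the sources used here. In HCT116, a colorectal cancer line, 4 arrays held cells given miR-139 or miR-143, each as its 5p or its 3p strand. In PANC-1, a pancreatic cancer line, 4 arrays held cells given a 5p strand (miR-30c-5p or miR-30a-5p) or a 3p strand (miR-30a-3p or else miR-30c-2-3p). Each miRNA had 1 array and the dyes were not swapped, so a miRNA effect and a dye effect on an array cannot be told apart, no value against mock has a replicate check, and a gene was called lower or higher when it was at least 2-fold from mock, a log2 ratio at least 1 from 0.

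Caveolae are small flask-shaped pits of the plasma membrane, rich in cholesterol. CAV1, the main structural protein of caveolae outside muscle, inserts into the inner leaflet of the membrane and forms oligomers together with CAV2, which depends on CAV1 to leave the Golgi apparatus. The cavins form a coat on the cytoplasmic side. PTRF is the cavin without which caveolae do not form, SDPR helps to shape them, and PRKCDBP takes part in their movement and in signalling. Caveolae buffer membrane tension and are abundant in mesenchymal, endothelial and fat cells.

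The mature miRNAs are shown because the letters of the seed, bases 2 to 8 and here in capitals, are those that pair with target messages. Sequences and positions are from RefSeq on GRCh38.p14.
miR-139-5p: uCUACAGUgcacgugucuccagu
miR-139-3p: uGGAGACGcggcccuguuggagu
miR-143-5p: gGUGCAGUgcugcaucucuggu
miR-143-3p: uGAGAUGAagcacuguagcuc
miR-30c-5p: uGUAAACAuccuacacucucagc
miR-30c-2-3p: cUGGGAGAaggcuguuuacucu
miR-30a-5p: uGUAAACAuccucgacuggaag
miR-30a-3p: cUUUCAGUcggauguuugcagc

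The MIR139 strands lie on the minus strand at chr11:72615102-72615124 (miR-139-5p) and chr11:72615066-72615088 (miR-139-3p), and the MIR143 strands on the plus strand at chr5:149428944-149428965 (miR-143-5p) and chr5:149428978-149428998 (miR-143-3p). The strands of MIR30A lie on the minus strand at chr6:71403595-71403616 (miR-30a-5p) and chr6:71403554-71403575 (miR-30a-3p). miR-30c-5p is made from both MIR30C1 (chr1:40757300-40757322, plus strand) and MIR30C2 (chr6:71377003-71377025, minus strand), and miR-30c-2-3p only from the latter (chr6:71376964-71376985, minus strand). miR-30c-5p and miR-30a-5p share the seed GUAAACA, and the other 6 miRNAs each have a seed of their own.

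The labels were set against the seeds by the genes whose probe holds the reverse complement of the array's own seed. With miR-143-5p, the 77 such genes had a median log2 ratio of -0.06 against 0.01 for the genes without it, and the medians of such genes on the other arrays ran from -0.08 (miR-30c-5p, 133 genes) to 0.03. The 2 arrays where they were not lower than the rest were those labelled miR-139-3p (50 genes, median 0.02) and miR-143-3p (120 genes, median 0.03). The paper chose target genes with the help of the first of these arrays. It reported some of them as lowered directly by the miRNA, from PCR, precipitation and reporter assays. On both arrays the genes without the match had a median of 0.01, and miR-139-5p gave -0.02 against 0.01. Gaps this small, read from seed letters within 60-base probes, cannot decide whether a label is right. Both arrays are cited below by their labels, and neither label is called wrong. Of the 60901 spots on an array, 44.1% to 45.3% passed the background test in Cy3 and 45.8% to 51.4% did so in Cy5, and no spot was saturated. Over the 300 probes printed 10 times, the SD of the log2 ratio among the spots of a probe was 0.0393 to 0.0646 by array, which is the error of the spots and not of the cells.

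CAV1 was below mock on all 4 HCT116 arrays, and at least 2-fold lower on 2 of them and on 1 PANC-1 array. Its brighter probe lies at chr7:116200742-116200801 and its other at chr7:116199001-116199060, both on the plus strand and in the hg19 positions of the array files (no annotation of that build was used here). In HCT116 the log2 level of mock CAV1 was 11, 11.19, 11.33 and 11.32 on the arrays of miR-139 (5p, then 3p) and miR-143 (5p, then 3p), the order kept below; a level is the log2 intensity of a channel after normalisation. The transfected level beside it was 10.54, 9.73, 8.73 and 10.51. Every transfected HCT116 level was thus under all 4 mock levels of the line, and the miR-143-5p level was far under the other 3. In PANC-1 the mock levels were 11.78, 11.91, 11.96 and 11.96 on the arrays of miR-30c (5p, then 2-3p) and miR-30a (5p, then 3p), the order kept below. The transfected levels were 12.08, 11.41, 12.17 and 10.67. Both miR-30 5p strands, which share a seed, thus gave a level above all 4 PANC-1 mocks, and both 3p strands one below them. In RNA of whole cultures, fewer cells with CAV1 and less CAV1 RNA per cell cannot be told apart.

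The CAV1 log2 ratios to mock in HCT116 were -0.47 after miR-139-5p, -1.46 (2.75-fold lower) on the miR-139-3p-labelled array, -2.60 (6.05-fold lower) after miR-143-5p, while the miR-143-3p-labelled array gave -0.81. In PANC-1 they were 0.30 after miR-30c-5p, -0.51 after miR-30c-2-3p, 0.21 after miR-30a-5p and -1.29 (2.45-fold lower) after miR-30a-3p. All 8 signs were the same under the 6 other ways of processing that bear on CAV1. The miR-30a-3p value was the most mobile, at -0.49 when each array was only centred on its median, a setting that moved the median of all detected genes to 0.30 there. Relative to that median it was -0.79, under the 2-fold rule.

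With miR-143-5p, CAV1 was the 3rd lowest of 20502 detected genes. RNF11 (-2.79) and HN1 (-2.70) were below it, and ITGB4 (-2.37) and MALL (-2.29) came next. CAV1 was the 153rd lowest of 20712 genes on the miR-139-3p-labelled array and the 112th lowest of 22065 on the miR-30a-3p array.

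The other CAV1 probe had the same sign on 8 of 8 arrays. Its log2 ratios were -0.60, -1.52, -1.73 and -0.61 in HCT116 and 0.30, -0.42, 0.21 and -0.94 in PANC-1, in the same order of arrays. The median gap between the probes was 0.11, and the largest was 0.87, on the miR-143-5p array, where the other probe was 3.32-fold lower. The size of the CAV1 difference after miR-143-5p therefore depended on the probe, and on the miR-30a-3p array only the brighter probe passed the 2-fold rule.

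**Figure D1:**
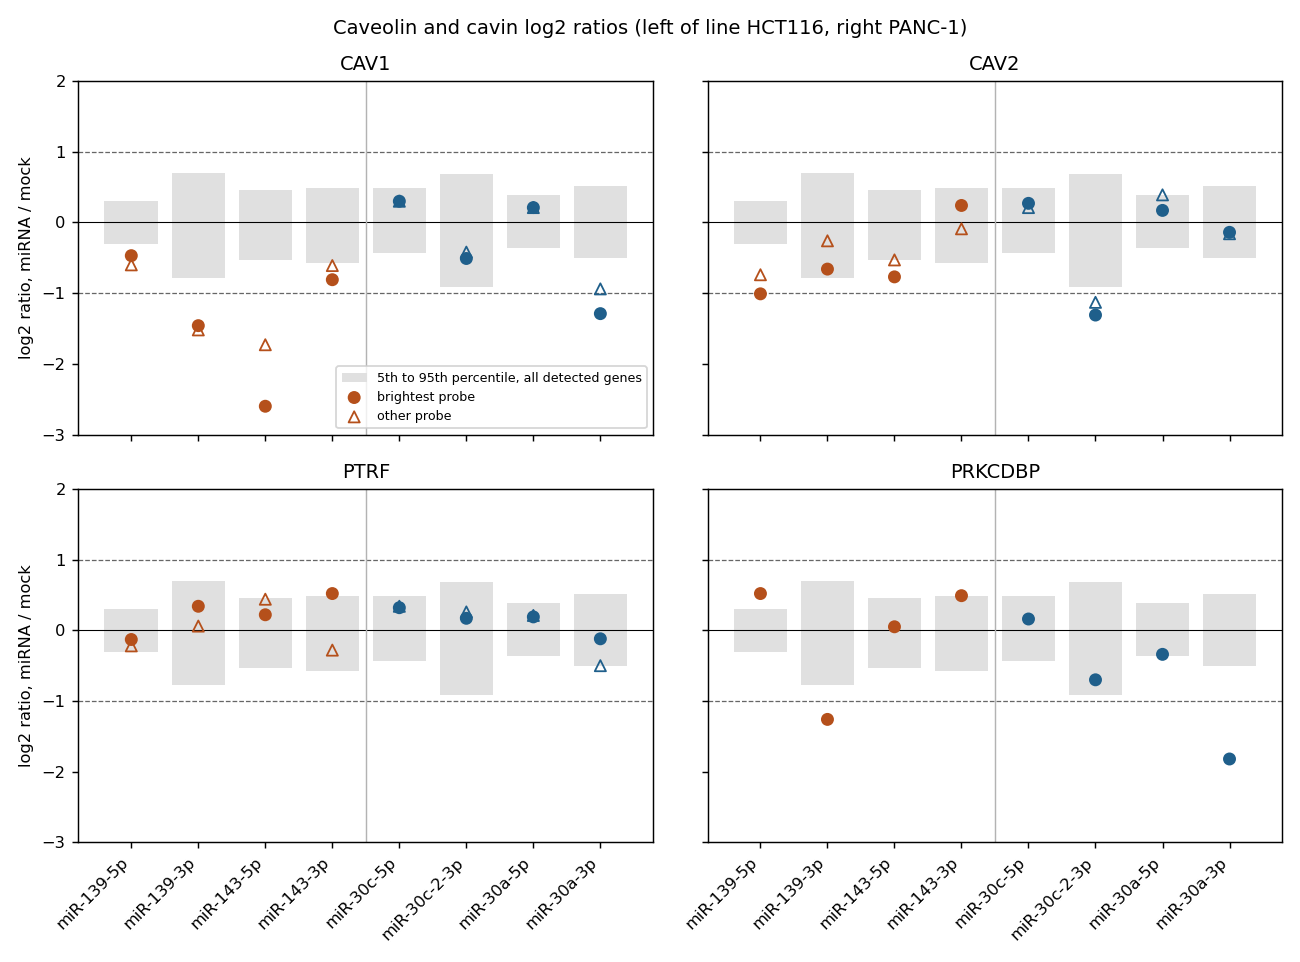
log2 ratio of miRNA over mock (vertical axis) on each of the 8 arrays (horizontal axis) for CAV1, CAV2, PTRF and PRKCDBP. Filled circles are the brightest probe of the gene, open triangles its other probe, orange HCT116 and blue PANC-1, each point 1 array; grey blocks span the 5th to 95th percentile of all detected genes and dashed lines mark a 2-fold difference. The lowest point is CAV1 after miR-143-5p at -2.60, with its other probe at -1.73.

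CAV2, the partner of CAV1 in the caveolar oligomer, was at least 2-fold lower on 2 arrays, on neither of which CAV1 was. Its brighter probe (chr7:116140389-116140448, plus strand, hg19) had mock log2 levels in HCT116 of 8.8, 8.79, 9.06 and 9.06 and transfected levels of 7.80, 8.14, 8.29 and 9.30. In PANC-1 the mock levels were 9.23, 9.31, 9.52 and 9.53 and the transfected levels 9.50, 8.0, 9.69 and 9.39. The lowest levels were those after miR-139-5p in HCT116 and after miR-30c-2-3p in PANC-1, both below every mock of the line.

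The CAV2 log2 ratio was -1.01 (2.01-fold lower) after miR-139-5p, where it was the 40th lowest of 20445 genes. It was -0.66 on the miR-139-3p-labelled array, -0.77 after miR-143-5p, and it was 0.24 where the label read miR-143-3p. In PANC-1 it was 0.27 after miR-30c-5p, -1.31 (2.48-fold lower) after miR-30c-2-3p, 0.17 after miR-30a-5p and -0.14 after miR-30a-3p. The miR-139-5p value stood at the 2-fold limit and was within it when arrays were only median-centred (-0.79) or when the probes were combined (-0.87). The sign on the miR-30a-3p array turned under median centring, to 0.54.

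The other CAV2 probe (chr7:116148261-116148320, plus strand) was dim, with intensities of 36.8 to 221, and agreed in sign on 7 of 8 arrays. It gave -0.74 after miR-139-5p and -1.13 after miR-30c-2-3p, so the miR-30c-2-3p value passed the 2-fold rule with both probes. CAV1 and CAV2 had the same sign on 7 of 8 arrays, yet were never both at least 2-fold lower.

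PTRF, the cavin that caveolae require, was within 2-fold of mock on all 8 arrays with both probes, except that under median centring its brightest probe reached 1.03 after miR-30c-5p. Its brightest probe (chr17:40555825-40555884, minus strand, hg19) had intensities of 16700 to 36400 and resembles the Alu repeat family, which is spread over the genome. The stretch it shares with other probes is shown because it bears on what that probe reads, with the shared 15 bases in capitals.
PTRF brightest probe: ggcaaacACCCCATCTCTACTAagcgaaaa

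That probe shared a run of 15 bases with 6 probes of 6 other genes, and the other 7 member probes with 0 or 1. The 3 genes with log2 ratios nearest to it over the 8 arrays were SLC16A12, FAM74A4 and NPIPB5, with mean absolute differences of 0.0462, 0.0501 and 0.0548, against 0.340 for the median gene of the 13320 detected on all arrays. The longest runs that their probes share with the brightest PTRF probe were 10, 12 and 7 bases, so none holds a shared run of 15. Their mock levels were also high, 14.62 to 15.26, 15.12 to 15.50 and 14.03 to 14.44. The part of shared sequence in the values of this probe was not tested. The other PTRF probe (chr17:40554477-40554536, minus strand) shares no run longer than 5 bases with the brightest one, against a median of 6 over all other probes, and its values are given first below.

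By that other probe, mock PTRF in HCT116 was at 11.85, 11.90, 12.18 and 12.10 and transfected PTRF at 11.63, 11.96, 12.63 and 11.83. In PANC-1 the mock levels were 12.84, 12.89, 12.80 and 12.83 and the transfected levels 13.18, 13.14, 13.00 and 12.32. The level was above every mock of its line after miR-143-5p and with 3 of the PANC-1 miRNAs, and below every mock after miR-30a-3p, after miR-139-5p and on the miR-143-3p-labelled array. The log2 ratios were -0.22, 0.06, 0.44 and -0.28 in HCT116 and 0.34, 0.26, 0.21 and -0.50 in PANC-1.

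The brightest probe gave -0.13, 0.34, 0.22 and 0.52 in HCT116 and 0.32, 0.17, 0.19 and -0.12 in PANC-1. The probes had the same sign on 7 of 8 arrays and parted on the miR-143-3p-labelled array by 0.79. On the array where CAV1 was lowest, miR-143-5p, PTRF was above mock by both probes.

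SDPR was not well above background in either channel on any of the 8 arrays. Its intensity was 18.8 to 21.9 in every channel, so no ratio is given. Its probe (chr2:192700102-192700161, minus strand, hg19) is shown because it was the only member probe to hold letters complementary to a seed of the transfected miRNAs, here in capitals for miR-30c-5p and miR-30a-5p.
SDPR probe: gatcagttggtTGTTTACttgctagaaacc

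The letters searched, on the strand of the probe, were the reverse complement of bases 2 to 8 of each miRNA. A second form, those letters without the first and with an A added at the end, was also searched. For these miRNAs the forms are TGTTTAC and GTTTACA, and at least 1 of them occurred in 0.768% of all 58201 probes. The first forms for the other miRNAs were ACTGTAG (miR-139-5p), CGTCTCC (its 3p strand), ACTGCAC (miR-143-5p), TCATCTC (its 3p strand), TCTCCCA (miR-30c-2-3p) and ACTGAAA (miR-30a-3p). These or their second forms were found in 0.591% to 1.79% of probes, by miRNA, and in no member probe. A probe covers only 60 bases, and a match or its absence in that window is a description of those letters.

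PRKCDBP, the cavin linked to signalling, was at least 2-fold lower on the miR-139-3p-labelled array and after miR-30a-3p, 2 arrays on which CAV1 was also called. Its probe lies at chr11:6340210-6340269 on the minus strand (hg19). Mock log2 levels in HCT116 were 9.85, 10.02, 9.65 and 9.64 and transfected levels 10.37, 8.75, 9.70 and 10.13. In PANC-1 the mock levels were 10.61, 10.79, 11.43 and 11.46 and the transfected levels 10.76, 10.09, 11.10 and 9.64. The level on the miR-139-3p-labelled array was below all 4 mocks of HCT116, as were the levels after miR-30c-2-3p and miR-30a-3p among those of PANC-1.

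The PRKCDBP log2 ratio was 0.52, -1.26 (2.40-fold lower), 0.05 and 0.49 on the HCT116 arrays and 0.16, -0.70, -0.34 and -1.82 (3.54-fold lower) on the PANC-1 arrays. It was the 26th lowest of 22065 genes after miR-30a-3p, and the 272nd lowest of 20712 on the miR-139-3p-labelled array. Both values were past 2-fold under every setting, with the miR-30a-3p value reaching -1.07 at its least under median centring. The signs near 0 with the 5p strands of miR-143, miR-30c and miR-30a turned under at least 1 setting. PRKCDBP was higher than mock after miR-139-5p and on the miR-143-3p-labelled array, arrays on which CAV1 was lower than mock.

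**Figure D2:**
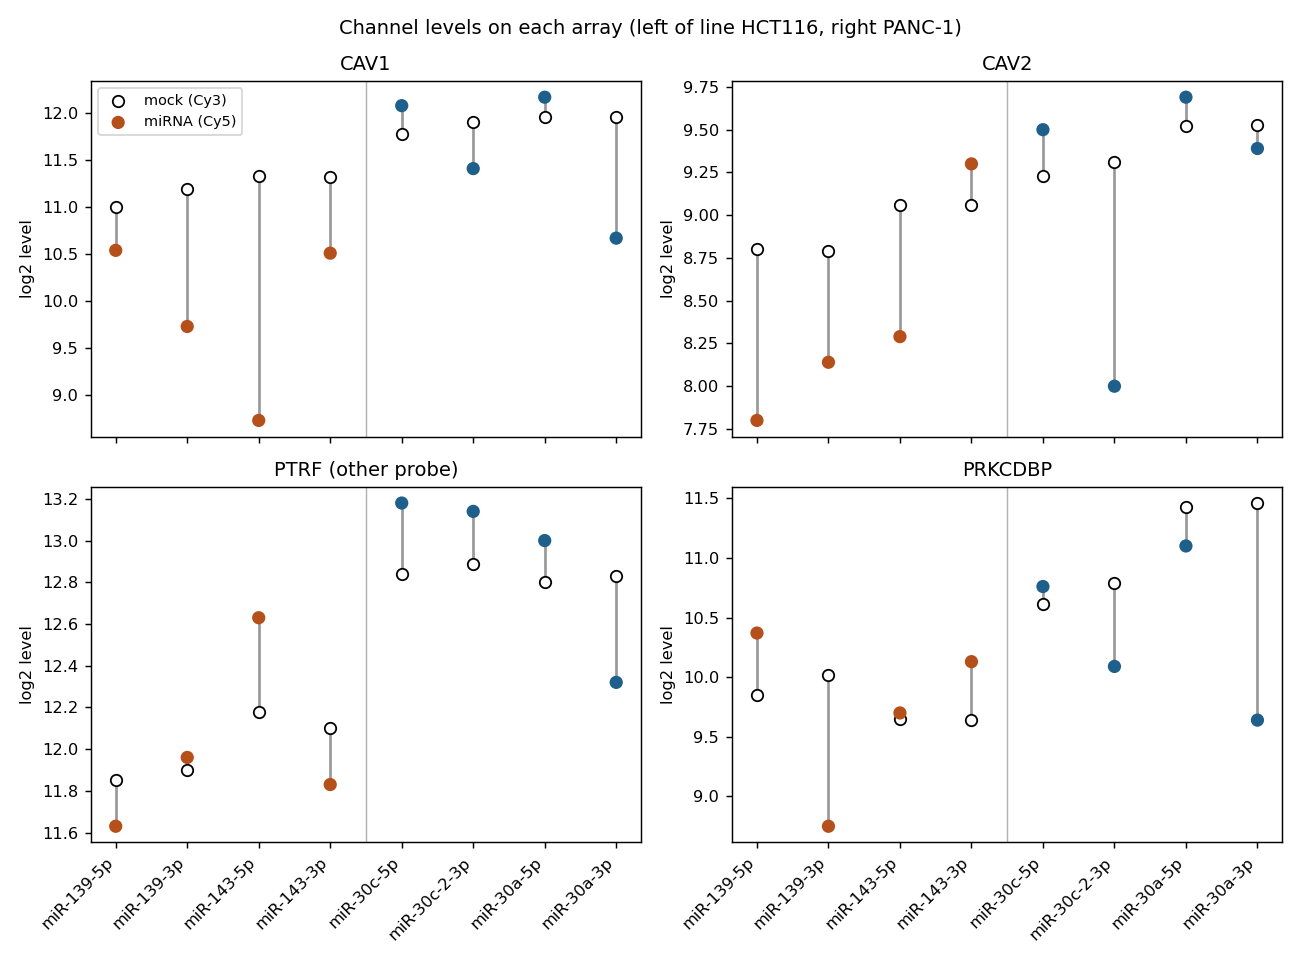
log2 level in each channel (vertical axis, a scale of its own in each panel) on the 8 arrays (horizontal axis). Open circles are mock (Cy3), filled circles the transfected cells (Cy5; orange HCT116, blue PANC-1), joined by a line on the same array; PTRF is drawn by its other probe. CAV1 transfected levels lie below mock on all 4 HCT116 arrays, from 8.73 after miR-143-5p to 10.54 after miR-139-5p.

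Over the 4 detected members and 8 arrays, 7 of 32 values were at least 2-fold lower and 0 were at least 2-fold higher. The count by array was 1 of 4 after miR-139-5p (CAV2), 2 on the miR-139-3p-labelled array (CAV1, PRKCDBP), 1 after miR-143-5p (CAV1), 0 on the miR-143-3p-labelled array, 0 after miR-30c-5p, 1 after miR-30c-2-3p (CAV2), 0 after miR-30a-5p and 2 after miR-30a-3p (CAV1, PRKCDBP). Because CAV1 on the miR-143-5p array is what the family was chosen by, nothing is read from its count there.

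The share of all detected genes at least 2-fold lower is the background for these counts. In HCT116 it was 0.201% after miR-139-5p, 2.82% on the miR-139-3p-labelled array, 1.0% after miR-143-5p, while the miR-143-3p-labelled array had 0.925%. In PANC-1 it was 0.445% after miR-30c-5p, 4.14% after miR-30c-2-3p, 0.263% after miR-30a-5p and 1.1% after miR-30a-3p. The share at least 2-fold higher, against which the 0 calls stand, was 0.0587%, 2.11%, 0.356% and 0.517% in HCT116 and 0.747%, 1.71%, 0.306% and 0.372% in PANC-1, in the same order. With 4 detected members and 1 array per miRNA, no test was made of these counts against the background.

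The median over the 4 detected members was lowest on the miR-139-3p-labelled array (-0.96), then came miR-30a-3p (-0.72), then miR-30c-2-3p (-0.60), and it was highest on the miR-143-3p-labelled array (0.37, but -0.02 with the other PTRF probe), while the median of all detected genes was 0.00 to 0.02. Of the 4 members, 3 were below mock on the miR-139-3p-labelled array and after miR-30c-2-3p, and 4 on the miR-30a-3p array. PTRF was the member above mock, at 0.34 (0.06 by its other probe) on the miR-139-3p-labelled array and 0.17 (0.26) after miR-30c-2-3p. Under median centring the miR-30a-3p median was 0.03, with 2 members below mock, so its place in this order depends on the scaling, while the median on the miR-139-3p-labelled array stayed the lowest of the 8 under every setting, at -1.10 to -0.86. Signs of PTRF and PRKCDBP were not settled on 3 arrays each and those of CAV2 on 1, where at least 1 way of processing turned them.

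The mock channels allowed a comparison of the untransfected lines, although the mock channel of the miR-143-5p array also entered the CAV1 ratio that the family was chosen by. Averaging the 2 arrays of a precursor gave 2 values per line, and limma with Benjamini-Hochberg adjustment over 24886 detected genes tested the difference. In this comparison 18.5% of all detected genes were lower in HCT116 and 20.0% were higher. CAV1 was lower in HCT116, at 11.21 against 11.90 on the log2 level scale in PANC-1, a difference of -0.69 (SE 0.10, 1.62-fold, limma adjusted p = 0.0222). Without the miR-143 mocks, which hold that channel, the difference was -0.81 (limma adjusted p = 0.0153). All 4 HCT116 mock values (11 to 11.33) were below all 4 PANC-1 values (11.78 to 11.96).

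CAV2 differed by -0.47 (SE 0.15, limma adjusted p = 0.0925) and PRKCDBP by -1.28 (SE 0.32, limma adjusted p = 0.0601), neither of which passed the 0.05 threshold although the mock values of the lines did not overlap. PRKCDBP spread most within a line, with 10.70 in the mock of the miR-30c arrays and 11.45 in that of the miR-30a arrays of PANC-1, a gap of 0.75. PTRF differed by -0.14 with its brightest probe (SE 0.13, limma adjusted p = 0.468, lines overlapping). With its other probe, a setting chosen after the data were seen, the difference was -0.83 (SE 0.11, 12.01 against 12.84, 1.77-fold, limma adjusted p = 0.0176).

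Thus 1 of 4 detected members was lower in HCT116, or 2 with the other PTRF probe, and 0 were higher, next to the backgrounds of 18.5% and 20.0%. Without either PANC-1 value the CAV1 call was lost, with limma adjusted p of 0.107 and 0.128. Nothing says that the mock RNA of arrays came from separate cultures, so these p-values may measure technical spread. The lines also lay in different columns of 1 slide, and line and slide position cannot be told apart. Epithelial and mesenchymal markers moved with the same contrast. Of 6 epithelial markers 5 were higher in HCT116 (median difference 1.60, from -0.41 to 4.43), and of 6 mesenchymal markers 5 were lower (median -2.04, from -8.87 to 0.03), with VIM at 6.13 to 7.13 in HCT116 and 15.38 to 15.61 in PANC-1. Their part in the caveolin difference was not tested.

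**Figure D3:**
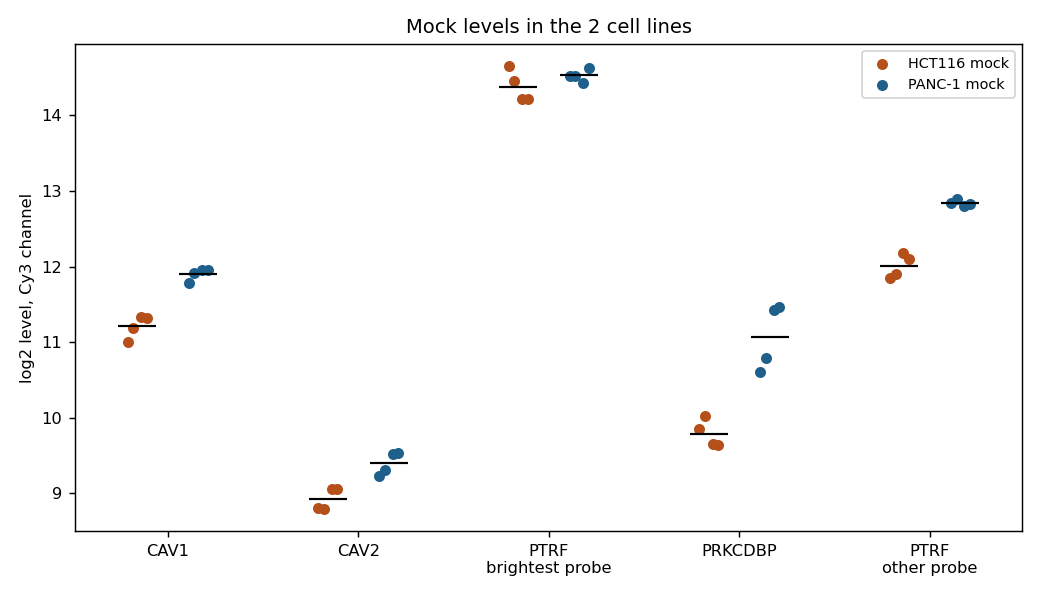
log2 level in the Cy3 (mock) channel (vertical axis) for each member probe (horizontal axis), with 4 arrays per line, orange HCT116 and blue PANC-1, and the line mean as a bar. CAV1 lies at 11 to 11.33 in HCT116 and 11.78 to 11.96 in PANC-1, whereas the brightest PTRF probe overlaps between the lines and its other probe does not.

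Proteins at the neck of caveolae, and others that help to form or move them, were followed with a list of 11 genes (88 values over the 8 arrays). Of these values 5 were at least 2-fold lower and 3 higher, against the array backgrounds given above. CAV3 (mock levels 5.88 to 6.17) and MURC (5.84 to 6.24) were dim and had little room to be called lower. EHD2, the ATPase that holds caveolae at the neck, had a log2 ratio of -1.03 on the miR-139-3p-labelled array and -1.21 after miR-30c-2-3p, and EHD4 was at -1.10 on the miR-139-3p-labelled array. Their relative EHD1 was also below mock on the miR-139-3p-labelled array, at -0.95, within 2-fold. It was called higher on other arrays, at 1.08 on the miR-143-3p-labelled array and 1.44 after miR-30c-5p. PACSIN3, a membrane-bending protein, was at -1.18 after miR-30c-2-3p. ROR1, a receptor that supports caveola formation, was at 1.28 after miR-30c-5p and -1.49 after miR-30a-3p, the first of these being 0.92 by the median over its probes.

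The list of clathrin coat and flotillin genes, for the other main routes of uptake, had 0 of 88 values at least 2-fold lower and 2 higher, CLTB (1.09, miR-143-5p) and AP2S1 (1.24, miR-30c-2-3p). Some of its genes were dim in PANC-1 and had little room to be called lower there, such as CLTC (mock levels 6.52 to 6.61). The counts of this list and of the lists below stand against the same array backgrounds. Of 128 values of 16 signalling genes whose proteins are found in caveolae, 5 were lower and 4 higher. This list held dim genes with little room to be called lower, such as TGFBR1 (mock levels 6.13 to 6.23). The lower ones were YES1 (-1.68) and PRKCA (-1.07) on the miR-143-3p-labelled array, GNAI2 after miR-30c-5p (-1.50) and miR-30a-5p (-1.39), and NOS3 after miR-30c-2-3p (-1.05). Under median centring both GNAI2 values (-0.88 each) and NOS3 (-0.93) were within 2-fold of mock, as was NOS3 by the median over probes (-0.50). YES1 is a Src-family kinase, PRKCA a protein kinase C, GNAI2 an inhibitory G protein subunit and NOS3 the endothelial nitric oxide synthase, whose activity CAV1 is known to inhibit. The higher ones were TGFBR2, a receptor of TGF-beta, after miR-30c-5p (1.04), miR-30c-2-3p (1.52) and miR-30a-3p (1.05), and the GTPase HRAS on the miR-139-3p-labelled array (1.0). All 3 TGFBR2 values were within 2-fold by the median over its probes (0.55, 0.75 and 0.57), and HRAS was at 0.89 against the mean of the 4 mocks.

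A further list held genes beside CAV1 and CAV2 on chromosome 7. In the RefSeq order CAV2, CAV1 and MET are adjacent protein-coding genes, followed by CAPZA2 and ST7, with TES before CAV2. TFEC and WNT2, the outer genes of the list, were not detected. Of 32 values of the other 4 genes, 4 were at least 2-fold lower and 0 higher, TES after miR-30c-2-3p (-1.07) and MET on the miR-139-3p-labelled array (-1.52), miR-143-5p (-1.94) and miR-30a-3p (-1.0). MET, the receptor of hepatocyte growth factor, was thus called on the same 3 arrays as CAV1, though its miR-30a-3p value stood at the limit and was -0.22 under median centring, where TES was also within 2-fold (-0.94).

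MET was also the gene whose ratios were nearest to those of CAV1 over the 8 arrays as processed here, with a mean absolute difference of 0.376 on the log2 scale, against 0.973 for the median of 13320 genes. MALL, a MAL-family membrane protein (0.394), ITGB4, the integrin beta 4 subunit (0.402), NASP, a histone chaperone (0.435), and THEM6 (0.441) followed. The order among these genes changed with the setting, and by the scanner's log ratio ITGB4 was at -4.16 after miR-30c-2-3p and its distance from CAV1 was 0.789, near that of CAV2 in the same setting (0.866). The members were farther away, CAV2 at 0.781, PRKCDBP at 0.818 and PTRF at 1.02 by its brightest probe or 0.868 by its other probe. The nearness rests in part on the array that chose the family, and likeness over 8 arrays of different miRNAs in 2 lines is a description.

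With miR-143-5p, MALL was at -2.29, ITGB4 at -2.37, THEM6 at -1.26 and NASP at -0.82 beside CAV1 at -2.60. MALL differed in sign from CAV1 after miR-139-5p (0.22), miR-30c-5p (-0.13) and miR-30a-5p (-0.24). MET and ITGB4 parted from CAV1 in sign after miR-30c-5p (-0.20 and -0.09) and miR-30a-5p (-0.49 and -0.19), while NASP (0.18 and 0.15) and THEM6 (0.30 and 0.18) were higher than mock there, as CAV1 was. The MET, MALL and ITGB4 signs after miR-30c-5p turned under median centring, and that of MALL after miR-30a-5p turned under at least 1 setting, to 0.25 at most.

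**Figure D4:**
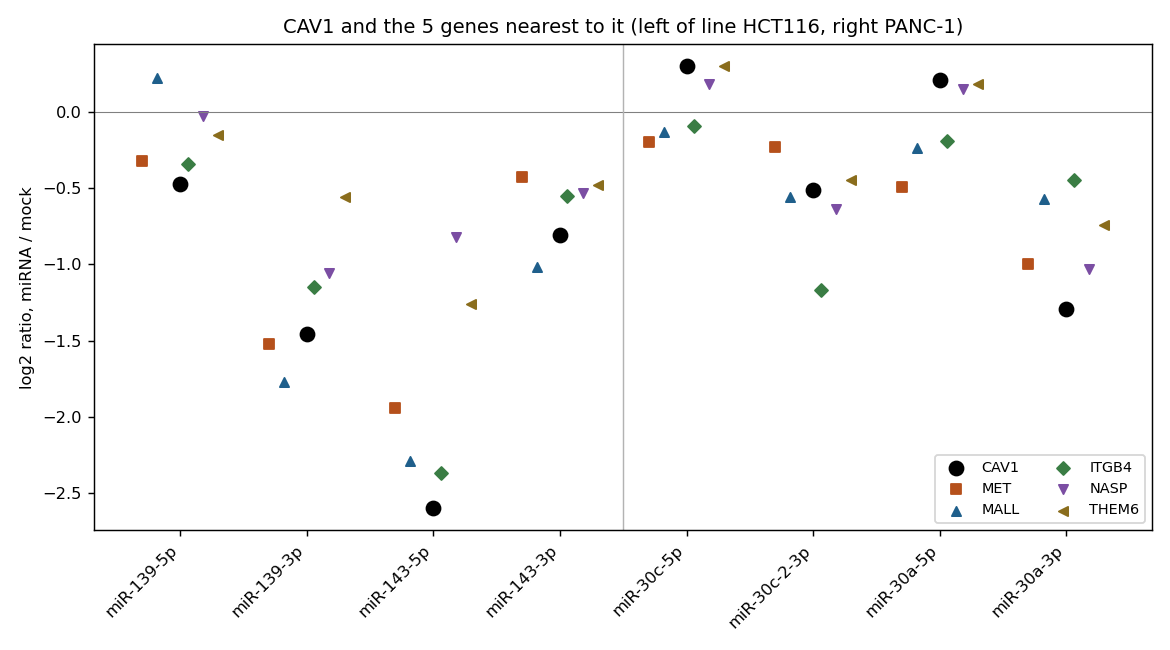
log2 ratio of miRNA over mock (vertical axis) on the 8 arrays (horizontal axis) for CAV1 (black) and the 5 genes with the smallest mean absolute difference from it, 1 point per gene and array, shifted sideways for legibility. MET follows CAV1 to -1.52 on the miR-139-3p-labelled array and -1.94 after miR-143-5p, and lies below mock with the miR-30 5p strands, where CAV1 was at 0.30 and 0.21.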

How the data were processed

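The deposited scanner files gave, per the file headers, spot intensities of 2 channels (Cy3 mock, Cy5 transfected) and a log10 ratio of red over green, both made by the authors with Agilent Feature Extraction. The value table of the same arrays differed from that log ratio by 0 and was not used further. Every measured column had a sample (0 without one). In R 4.3.3 with limma 3.58.1, intensities were corrected by normexp (offset 50), normalised by loess within each array (span 0.3, control spots at weight 0), and spots of a probe averaged without outlier spots; a gene took its probe of highest mean signal. Channel levels came from loess followed by Aquantile, on the log2 scale. A gene was detected on an array when well above background in at least 1 channel. Tables were made in Python 3.11.15 with pandas 2.3.3. Each miRNA had 1 array, so a 2-fold rule was used and no p-value. Mock HCT116 and PANC-1 levels were tested by limma (lmFit, eBayes) with Benjamini-Hochberg adjustment at 0.05, and that script was tested on simulated data. The members and the gene lists were chosen with earlier results of these data known. The genes named were all members, the genes of each list at least 2-fold from mock on an array (at most 6 a list, farthest from 0), and the 5 genes nearest to CAV1 and 3 nearest to PTRF.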

Additional observations from a re-analysis of the deposited data

How the results depend on the processing

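The CAV1 log2 ratio after miR-143-5p, -2.60, kept its direction and stayed past 2-fold under every alternative. It was -2.72 without background correction, -2.74 with a normexp offset of 10, -2.36 with median centring in place of loess, -2.72 by the scanner's log ratio, -2.16 by the median over probes and -2.48 against the mean of the 4 HCT116 mock channels. Values at least 2-fold lower stayed at 7 of 32 except under median centring (5) and the median over probes (6), and the 0 at least 2-fold higher became 1 under median centring (PTRF, 1.03 after miR-30c-5p). Median centring moved the median of all detected genes to 0.21 after miR-30c-5p, 0.15 after miR-30a-5p and 0.30 after miR-30a-3p. Relative to that median PTRF was at 0.82 after miR-30c-5p. The count of members differing between mock lines, 1, became 3 with each array as its own value, 2 without background correction, 2 by the median over probes and 2 by the other PTRF probe, and ran from 0 to 2 when 1 averaged mock was left out: 0 without either PANC-1 mock and 2 without the first HCT116 mock, where PTRF was called (-0.31, limma adjusted p = 0.0134). A line left with 1 value was assumed to vary like the other. Each array as its own value counts arrays that may hold the same mock RNA, and the cause of the other changes was not tested. Of the 23 calls among listed genes that are not markers, 18 stayed past 2-fold under median centring and 18 under the median over probes, and 0 turned in sign. The other PTRF probe and the mean of the mocks were chosen after seeing the data. No paired analysis was possible because each miRNA had 1 array and the mock values carry no shared replicate number. For the member ratios other than that of CAV1 after miR-143-5p, 186 comparisons with an alternative that can move the value were made, of which 74 moved by less than the SD among spots of a probe and 112 by more, and no value past 2-fold turned in sign. Probes near background, such as the other CAV2 probe, limit the ratios they can give, and spots measure no spread between cultures.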

Other observations

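Set against the mock channels of their own line in place of the array's own mock, the transfected levels of the 4 detected members (PTRF by its brightest probe) in HCT116 were below all 4 mocks in 8 cases, above all 4 in 5 and within their range in 3. In PANC-1 they were below in 5 cases, above in 5 and within in 6. The cases below in HCT116 include CAV1 after miR-143-5p, the value the family was chosen by. No share of all detected genes outside their mocks is given here, so nothing is read from these counts. The mocks of the miR-143 arrays differed from each other by 0.01 at most for CAV1, CAV2, PRKCDBP and the brightest PTRF probe, and those of the miR-139 arrays by 0.01 to 0.20.

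Markers of cell state were also called in PANC-1. VIM, an intermediate filament protein of mesenchymal cells, had log2 ratios of -1.63 after miR-30c-5p, -1.35 after miR-30c-2-3p and -1.65 after miR-30a-5p, and COL1A1, a collagen chain, -1.28 after miR-30c-2-3p. KRT18, a keratin of simple epithelia, was at 1.25 after miR-30c-5p, 1.09 after miR-30a-5p and -1.14 after miR-30a-3p. The tight junction genes CLDN4 and CLDN7 were at -1.35 and -1.54 after miR-30c-2-3p. In all, 3 of 48 epithelial values were at least 2-fold lower and 2 higher, and 4 of 37 mesenchymal values lower and 0 higher, with none of the calls in HCT116. These counts stand against the array backgrounds given above. In HCT116 mesenchymal genes had low mock levels, such as SPARC at 6.11 to 6.47 and VIM at 6.13 to 7.13. Undetected SDPR lay at 5.75 to 5.80 there, so such genes had little room to be called lower.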
